A study of Mus musculus with 2 samples.

Results

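The genes described here are 7 members of 2 DNA repair pathways, mismatch repair and base excision repair, followed along the cell cycle of mouse cortical neurosphere cells. They were chosen by name, with earlier results of these data known, and matched to the expression table by Ensembl identifier. All 7 of them were found among its 10666 genes. Ung encodes the uracil-DNA glycosylase, Msh6 a mismatch recognition protein, Exo1 a 5′ to 3′ exonuclease, Fen1 the flap endonuclease, Lig1 DNA ligase I, Parp1 a poly(ADP-ribose) polymerase that binds strand breaks, and Xrcc1 the scaffold of single-strand break repair.

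The study profiled 2 replicate cultures of wild-type neurospheres by droplet-based 3′ single-cell RNA-seq, with 1 condition and no treatment or mutant. Both cultures came from the dorsal telencephalon of C57BL/6 embryos at embryonic day 14.5 and were grown as floating spheres in DMEM-F12 with N2, B27 lacking retinoic acid, and 10 ng/ml each of EGF and bFGF. The spheres had been passaged several times, so the cells stand for progenitors selected by growth factors and not for the cortex as dissected, and the number of embryos behind each culture was not given in the sources used here. Culture 1 held 5748 cells with a median of 19477 unique molecular identifiers (UMIs, counted transcripts) per cell, and culture 2 held 7057 cells with a median of 14637. Of the 6 progenitor genes in the table, Fabp7, Vim, Slc1a3 and Nes were each found in at least 89.8% of cells of either culture, Hes1 in 44.5% and 50.5% and Pax6 in 21.1% and 23.1% (cultures 1 and 2). Of the oligodendrocyte progenitor genes Olig2 was found in 97.3% and 91.9% and Pdgfra, Cspg4 and Sox10 in 0.751% to 13.7%, and of the neuron genes Map2 was found in 77.7% and 63.6% and Dcx in 7.34% and 1.56%. The astrocyte genes Aldh1l1 and S100b were found in 43.2% and 28.8% and in 18.6% and 6.65%. The 4 microglial, 4 endothelial and pericyte and 4 fibroblast markers sought were not among the genes analysed here. Neither were Sox2, Hes5, Olig1, Tubb3, Stmn2, Neurod1, Dlx1, Dlx2, Gfap and Aqp4 of the other lists, so a missing marker does not show that a cell type was absent. In all, 48 cell barcodes occurred in both cultures. Each cell carries a cell-cycle position, an angle from 0 to 2π. On this circle the replicative helicase genes Mcm2 to Mcm7 had their harmonic maxima at a median of 0.70π and 0.65π (cultures 1 and 2), and 6 genes of G2 and mitosis (Top2a, Cdk1, Ccnb1, Cenpf, Ube2c and Hmgb2) had theirs at 1.14π and 1.13π.

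Mismatch repair removes bases misincorporated by the replicative polymerases. MSH6 takes part in recognising the mismatch, the new strand is nicked, EXO1 degrades it, and polymerase delta with its clamp PCNA and a ligase restore it. Base excision repair begins with a glycosylase, such as UNG, that removes a damaged or foreign base. In the short-patch branch the gap is filled by polymerase beta and sealed with the help of XRCC1, and in the long-patch branch the displaced strand is cut by FEN1 and sealed by LIG1, which also mature Okazaki fragments at every replication fork. UNG also removes uracil that polymerases place opposite adenine, and several of these proteins thus act at or just behind the fork.

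The start regions of 4 of the members are shown because these genes rose in the same stretch of the cell cycle. Windows of 300 bases, from 250 bases before to 50 bases after a RefSeq gene start (GRCm38.p6), were found for 6 of the 7 genes, and none was listed for Exo1. Capitals mark matches, on either strand, to 4 forms of the E2F core, the letters bound by the transcription factors that switch on genes at the entry into S phase. The first form searched was TTCCCGC, the second form was TTCGCGC, the third form was TTGGCGC and the last form was TTGCCGC. The window of Ung lies at chr5:114130185-114130484 on the plus strand, that of Msh6 at chr17:87974800-87975099 on the plus strand, that of Fen1 at chr19:10203872-10204171 on the minus strand, and that of Lig1 at chr7:13278576-13278875 on the plus strand. Each covers the promoter and the first bases of the transcript, and for Fen1, which has 2 windows, the one nearest a principal transcript in the GENCODE vM21 annotation is given. Of the 3 windows of Lig1, 2 lie at the start of a principal transcript, and the first of them is given.
Ung: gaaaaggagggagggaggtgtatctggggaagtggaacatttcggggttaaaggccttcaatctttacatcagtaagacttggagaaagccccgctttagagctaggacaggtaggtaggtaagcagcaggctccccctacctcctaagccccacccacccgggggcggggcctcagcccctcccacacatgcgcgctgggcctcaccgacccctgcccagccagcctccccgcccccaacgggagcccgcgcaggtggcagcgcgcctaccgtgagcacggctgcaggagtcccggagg
Msh6: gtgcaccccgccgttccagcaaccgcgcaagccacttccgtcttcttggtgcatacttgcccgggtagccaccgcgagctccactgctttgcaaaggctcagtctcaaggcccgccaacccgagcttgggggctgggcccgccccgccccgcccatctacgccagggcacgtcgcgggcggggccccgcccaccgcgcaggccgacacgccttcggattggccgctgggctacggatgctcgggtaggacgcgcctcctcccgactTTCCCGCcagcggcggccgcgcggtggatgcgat
Fen1: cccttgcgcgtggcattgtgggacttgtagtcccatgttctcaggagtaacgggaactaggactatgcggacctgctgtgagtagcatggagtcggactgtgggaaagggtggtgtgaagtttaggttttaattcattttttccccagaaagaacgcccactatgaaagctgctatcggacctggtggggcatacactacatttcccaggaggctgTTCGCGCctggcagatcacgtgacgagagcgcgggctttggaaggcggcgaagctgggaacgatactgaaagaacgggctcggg
Lig1: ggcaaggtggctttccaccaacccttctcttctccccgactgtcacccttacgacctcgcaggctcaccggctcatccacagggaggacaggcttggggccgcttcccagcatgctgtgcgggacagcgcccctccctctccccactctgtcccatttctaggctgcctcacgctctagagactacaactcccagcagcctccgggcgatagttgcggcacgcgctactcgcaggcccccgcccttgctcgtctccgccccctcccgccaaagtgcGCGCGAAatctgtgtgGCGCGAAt

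The printed window of Msh6 held 1 E2F core match, which began 17 bases into the transcript. That of Fen1 held 1, which began 34 bases before the start, and that of Lig1 held 2, on the opposite strand, at 27 and 43 bases into the transcript. The other Lig1 window at a principal start, chr7:13279015-13279314, held 1 match, at 4 bases into the transcript. The windows of Ung, Parp1 and Xrcc1 held none, which says only that these 7 letters did not occur there. The only window of Xrcc1 is set on a start 410 bases from that of its principal transcript. It does not cover that start, so the promoter there was not searched. Of all 32851 windows 9.57% held a match. Among the genes of the expression table that have a window, the share of genes with a match was 21.2% of 8324 in all, 44.5% of the 353 that varied with position by the criterion below, and 57.1% of the 168 of these that were highest between 0.5π and π in both cultures. The motif was chosen after the profiles had been seen, and the shares are a description.

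How strongly each gene followed the cell cycle was measured by the R² of log2(value + 1) on 2 harmonics of the position, fitted within each culture for all 10666 genes. A gene was counted as varying with position where R² was at least 0.05 in both cultures. By this criterion 5 of the 7 repair genes varied, Ung, Msh6, Exo1, Fen1 and Lig1, against 4.01% of all genes. At an R² of 0.02 all 7 did, against 8.34%, and at 0.1 the 4 other than Msh6, Parp1 and Xrcc1, against 2.25%. All 5 had their harmonic maximum between 0.5π and π in both cultures. Of the 428 genes that varied, 210 did so, and these 210 are 1.97% of all genes. The members, and the gene lists used below, were chosen with earlier results of these data known. The shares set against all genes are therefore a description and not a contrast with an unselected set. There is 1 condition, and cells of a culture are not replicates, so no test was made, and the spread of a value is that between the 2 cultures. The position itself was derived from cell-cycle genes, some of which may be these genes, and Ung, Exo1 and Fen1 belong to a widely used list of S-phase genes. With a position rebuilt in each culture from cell-cycle genes that exclude every repair gene named here, which lay a median of 0.0390π and 0.0414π from the deposited one, the same 5 genes met the criterion.

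By R², Lig1 and Ung followed the position most closely. The R² of Lig1 was 0.555 in culture 1 and 0.435 in culture 2, and its lower value ranked 28 among all genes. That of Ung was 0.443 and 0.424, at rank 32. Fen1 had 0.376 and 0.251, at rank 101, and Exo1 0.247 and 0.192, at rank 144. R² over single cells is not a measure of range, and sparse counts can hold it down, here and in the lists below. Exo1 was found in 25.5% and 12.5% of cells and Lig1 in 58.0% and 40.4%, yet Exo1 had the wider range over the arcs below. Msh6 was the closest to the criterion of the 5, at 0.106 and 0.0603. The other two members lay just outside it in 1 culture, Xrcc1 at 0.0603 and 0.0491 and Parp1 at 0.0507 and 0.0434, so that each passed in culture 1 and not in culture 2. Their ranks were 433 and 478, and their percentiles 95.9 and 95.5. With log2 total UMIs held in the fit the partial R² of Parp1 was 0.0529 and 0.0380 and that of Xrcc1 0.0508 and 0.0438.

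**Figure D1:**
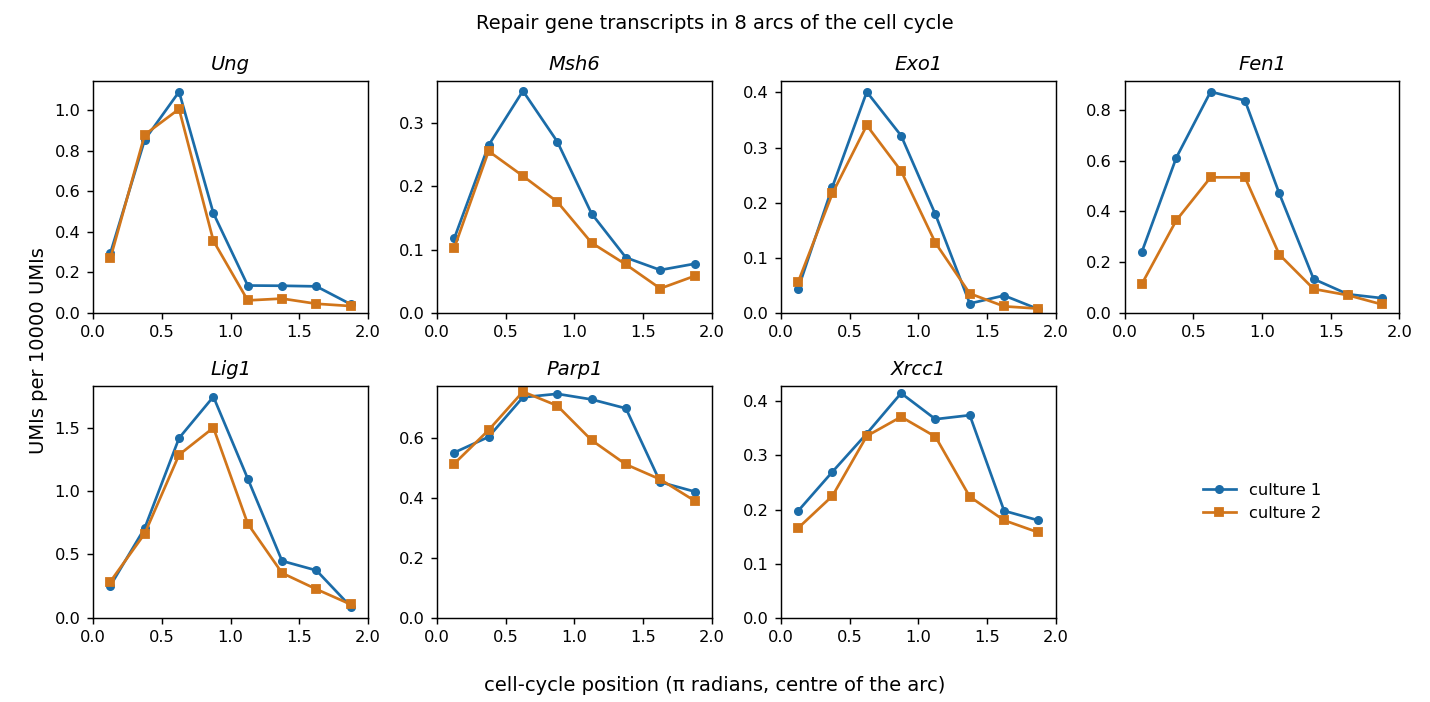
UMIs of each repair gene per 10000 UMIs of the cell, summed over the cells of 8 arcs of 0.25π, against the centre of the arc (x axis, cell-cycle position in π radians), for culture 1 (circles) and culture 2 (squares). Each panel has its own y axis from 0. Ung falls to 12.3% and 6.03% of its highest arc by the arc from π, where Lig1 still has 63.0% and 49.5%, and Parp1 and Xrcc1 stay above 40% of their highest arc throughout.

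Levels along the cycle are given as UMIs of the gene per 10000 UMIs of the cell, recovered from the deposited values as described under the processing, with the cells of each culture divided into 8 arcs of 0.25π. The arcs from 1.25π to 1.75π held the fewest cells, 85 and 64 in culture 1 and 279 and 189 in culture 2, and the arc from 1.75π to 2π, around the mean position of the cells staged G1, held 31.1% and 44.6% of the cells. Median depth also moved with the position, from 14111 UMIs in the arc from 1.25π to 22967 in the arc from 0.75π in culture 1 and from 11882 in the arc from 1.25π to 17813 in the arc from π in culture 2. Shares of cells are therefore given after each cell was thinned to 8000 UMIs, which leaves out 88 and 205 cells.

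Ung, whose product excises uracil, had an early and narrow rise. In culture 1 its level over the 8 arcs, beginning at 0, was 0.295, 0.854, 1.09, 0.491, 0.134, 0.133, 0.130 and 0.0416 UMIs per 10000, and in culture 2 it was 0.269, 0.879, 1.01, 0.355, 0.0607, 0.0696, 0.0441 and 0.0328. The cultures overlapped closely on the way up and both had lost most of the transcript before the arc from π. The exact 95% Poisson intervals of the highest arc, which cover counting error only, were 1.04 to 1.15 and 0.941 to 1.08, and those of the lowest 0.0350 to 0.0492 and 0.0278 to 0.0385. The highest arc was 26.2 times the lowest in culture 1 and 30.7 times in culture 2. At equal depth a Ung UMI was found in 58.1% and 54.7% of cells in the arc from 0.5π and in 3.17% and 2.57% in the arc from 1.75π. No cell type that lacks these transcripts was sampled, so the share of cells given by free RNA was not measured apart from these lowest values.

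Exo1, the exonuclease of mismatch repair, was nearly absent from the arc from 1.75π. Its level over the arcs of culture 1 was 0.0434, 0.229, 0.401, 0.322, 0.178, 0.0166, 0.0312 and 0.00629 UMIs per 10000, and in culture 2 it was 0.0556, 0.217, 0.340, 0.257, 0.127, 0.0348, 0.0115 and 0.00744. Both cultures were highest in the arc from 0.5π and kept 44.5% and 37.3% of that level in the arc from π. The highest arc was 63.7 and 45.7 times the lowest, the widest range of the 7 genes in each culture, and it rests on only 21 and 34 UMIs in the lowest arc. At equal depth 28.4% and 24.3% of cells had an Exo1 UMI in the highest arc and 0.405% and 0.565% in the lowest.

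Msh6, a sensor of base mismatches, had a shallower rise. Its level was 0.118, 0.265, 0.351, 0.271, 0.157, 0.0873, 0.0676 and 0.0774 UMIs per 10000 in culture 1 and 0.103, 0.256, 0.217, 0.176, 0.111, 0.0763, 0.0383 and 0.0581 in culture 2. The cultures differed in where it was highest, in the arc from 0.5π in culture 1 and one arc earlier in culture 2. The intervals of these highest arcs were 0.322 to 0.383 and 0.219 to 0.298. The highest arc was 5.20 and 6.68 times the lowest, which held 64 and 189 cells.

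Fen1 and Lig1, the flap nuclease and the ligase of the long-patch branch and of Okazaki fragments, stayed high for longer than Ung. Fen1 had 0.241, 0.612, 0.873, 0.838, 0.471, 0.133, 0.0728 and 0.0574 UMIs per 10000 in culture 1 and 0.114, 0.365, 0.535, 0.535, 0.230, 0.0937, 0.0690 and 0.0324 in culture 2. Its arc from 0.75π had 96.0% of the level of its arc from 0.5π in culture 1 and the same level after rounding in culture 2, and culture 1 was higher in 8 of 8 arcs. Lig1 had 0.254, 0.709, 1.42, 1.74, 1.10, 0.449, 0.374 and 0.0884 in culture 1 and 0.286, 0.665, 1.29, 1.50, 0.743, 0.354, 0.226 and 0.106 in culture 2. It was the one gene of the 5 that was highest in the arc from 0.75π in both cultures and whose arc from π exceeded its arc from 0.25π in both. The highest arc was 15.2 and 16.5 times the lowest for Fen1 and 19.7 and 14.1 times for Lig1. At equal depth a Lig1 UMI was found in 74.2% and 70.6% of cells in its highest arc and in 6.69% and 7.71% in its lowest.

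Parp1 and Xrcc1, which act at single-strand breaks, were present all around the cycle. Parp1 had 0.551, 0.603, 0.735, 0.747, 0.728, 0.698, 0.452 and 0.421 UMIs per 10000 in culture 1 and 0.514, 0.626, 0.754, 0.707, 0.592, 0.512, 0.462 and 0.390 in culture 2, so the highest arc was 1.77 and 1.93 times the lowest. Xrcc1 had 0.197, 0.270, 0.340, 0.415, 0.367, 0.374, 0.198 and 0.180 in culture 1 and 0.166, 0.225, 0.336, 0.371, 0.334, 0.224, 0.180 and 0.158 in culture 2, a range of 2.31 and 2.35 times. Both were lowest in the arc from 1.75π in each culture. Even there, at equal depth, 28.5% and 26.1% of cells had a Parp1 UMI and 13.1% and 12.0% an Xrcc1 UMI.

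**Figure D2:**
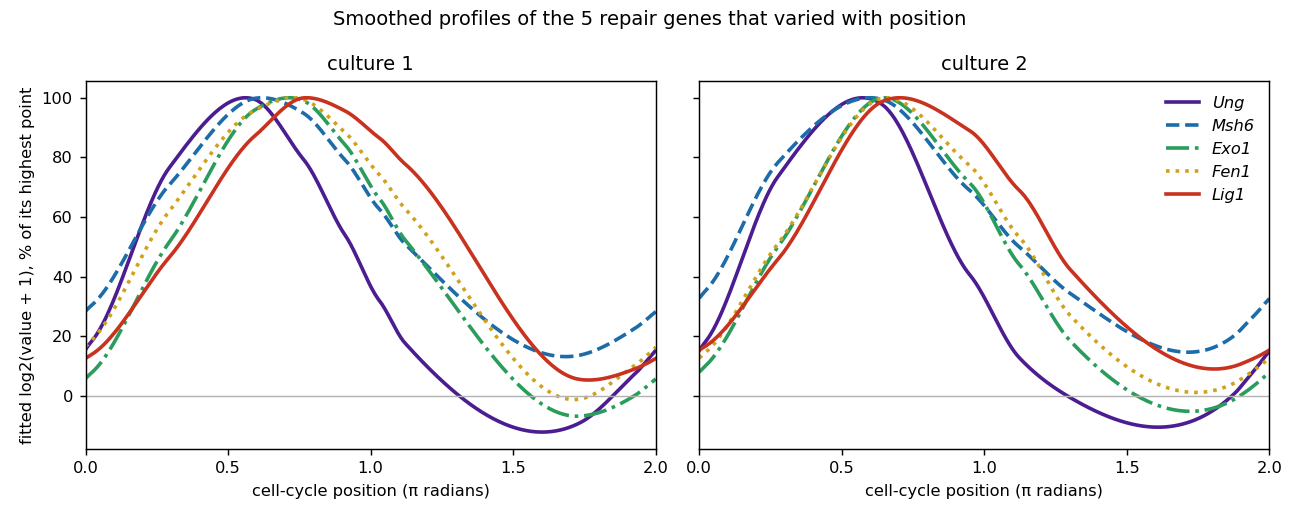
Periodic loess lines of log2(value + 1) for the 5 genes that varied with position, each as a percentage of its own highest point, against cell-cycle position in π radians, with culture 1 on the left and culture 2 on the right. Ung is highest first and falls first and Lig1 is highest last and falls last in both cultures, and the lines of Ung and Exo1 dip below 0 in both cultures and that of Fen1 in culture 1.

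The 5 genes were highest one after another. A periodic loess line, a smooth curve through the cells, was highest at 0.560π and 0.575π for Ung, 0.620π and 0.600π for Msh6, 0.715π and 0.650π for Exo1, 0.725π and 0.660π for Fen1, and 0.775π and 0.705π for Lig1, in cultures 1 and 2. Ung preceded Lig1 by 0.215π and 0.130π, and between them Exo1 and Fen1 were 0.010π apart in each culture, less than the 0.065π by which either gene differed between the cultures. The order Ung, Msh6, Exo1, Fen1, Lig1 was that of these lines in both cultures. Yet the neighbours Msh6 and Ung, and Exo1 and Fen1, changed places in 1 of the 2 cultures under another width of the smoother. Across 18 lines, from 9 settings of scale, smoother, position and cells in 2 cultures, Ung came before Exo1 and Exo1 before Lig1 in 18, with Lig1 later than Ung by 0.120π to 0.330π. Where each line was highest depended on the smoother, whose span above was 0.3. With a span of 0.1 Ung was highest at 0.590π and 0.535π, Msh6 at 0.600π and 0.490π and Exo1 at 0.680π and 0.665π. Fen1 was then highest at 0.810π and 0.770π and Lig1 at 0.900π and 0.830π. At the span of 0.3 the line of Lig1 in culture 2 was highest before its highest arc, which began at 0.75π. The line of Msh6 in culture 2 was highest after its highest arc, which ended at 0.5π, where the highest arc of Ung began. By arcs, Msh6 thus came before Ung in culture 2, and the place of Msh6 beside Ung is unsettled.

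With the span of 0.3 the fall of Ung and Lig1 lay further apart than their rise. The line of Ung passed the midpoint of its range on the way up at 0.145π in both cultures and on the way down at 0.965π and 0.920π. That of Lig1 did so at 0.340π and 0.335π and at 1.33π and 1.23π. With a span of 0.5 this turned around, with Ung at 0.085π and 0.095π and Lig1 at 0.445π and 0.520π on the way up, and Ung at 1.31π and 1.12π and Lig1 at 1.39π and 1.32π on the way down. Again with the span of 0.3, Exo1 fell past its midpoint at 1.17π and 1.10π and Fen1 at 1.24π and 1.15π. Both lay between Ung and Lig1 at that span. At the same span Xrcc1 was highest late, at 0.900π and 0.915π. Parp1 was highest at 0.885π and 0.670π, a difference of 0.215π between cultures that left its place in the order unsettled.

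**Figure D3:**
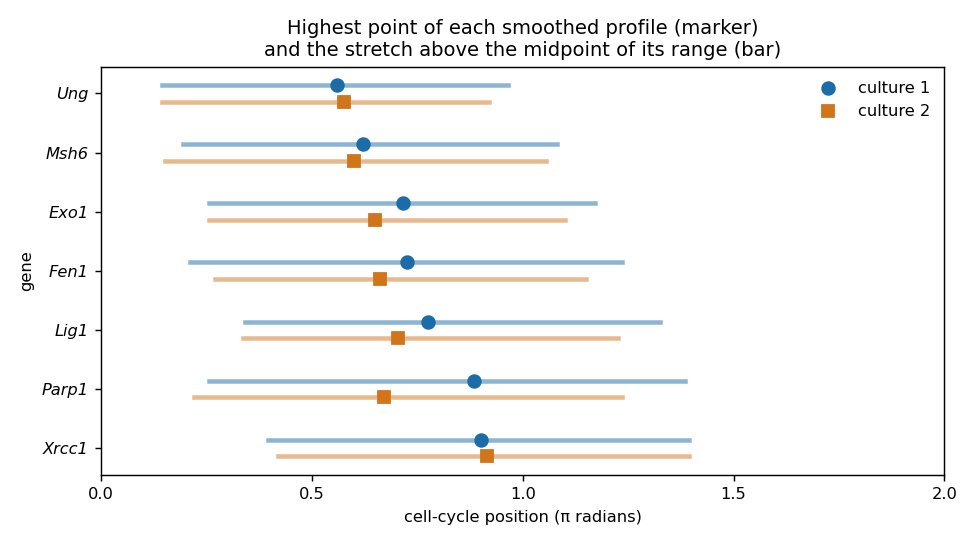
Position of the highest point of the loess line (markers) and the stretch over which the line lies above the midpoint of its range (bars), in π radians, for each gene in culture 1 (circles) and culture 2 (squares). The markers run from 0.560π and 0.575π for Ung to 0.900π and 0.915π for Xrcc1, and the 2 markers of Parp1 lie 0.215π apart.

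Stages assigned to the cells by 3 methods gave a second view that does not use the position. For Msh6, Parp1 and Xrcc1, which are in neither of the S-phase and G2/M lists used for the Seurat stages, the level in S cells was 3.41 and 3.28, 1.57 and 1.64, and 1.89 and 1.88 times that in G1 cells in cultures 1 and 2. Lig1, also outside these lists, had 9.88 and 7.62 times the G1 level in S cells and 9.21 and 5.32 times in G2M cells. Xrcc1 was higher in G2M than in S cells in both cultures, at 0.387 against 0.346 and 0.324 against 0.297 UMIs per 10000. Ung, whose gene is on the S list, was at 0.880 and 0.804 in S cells but at 0.164 and 0.0727 in G2M cells, 1.68 and 1.12 times its G1 level. By the 5-stage assignment, whose gene lists were not examined here and in which 42.6% and 44.7% of cells have no stage, Ung was higher in G1.S than in S cells, at 0.949 against 0.447 and 0.776 against 0.255, while Lig1 was higher in S than in G1.S cells, at 1.55 against 1.16 and 1.07 against 0.827. The stages from cyclone, which compares pairs of genes, placed 4483 and 5840 cells in G1 and only 133 and 56 in S. Per the authors, cyclone appears weak at labelling S cells, and the 5-stage method places some G0/G1 cells in other stages. Ung, Exo1, Fen1 and Lig1 are among the genes that cyclone compares, so their levels by its stages are not independent of the stages. Msh6, Parp1 and Xrcc1 are not among them. By the cyclone stages Ung was not higher in S than in G1 cells, at 0.417 against 0.428 and 0.235 against 0.258. The S value of culture 2 rests on 21.5 UMIs. Each of the other 6 members was higher in S cells in both cultures, Lig1 at 1.68 against 0.696 and 1.17 against 0.417.

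The 5 varying genes were detected together in the same stretch. With each cell thinned to 8000 UMIs, at least 3 of the 5 had a UMI in 42.4% of 700 cells of culture 1 and in 29.1% of 512 cells of culture 2 in the arc from 0.5π. In the arc from 1.75π this held for 2 of 1756 cells and for 0 of 3032, and none of the 5 was found in 81.2% and 82.3% of cells. Across all cells, the 21 pairs of the 7 genes correlated at 0.0299 to 0.462 in culture 1 and 0.0308 to 0.313 in culture 2 (Pearson, log2 values). After the mean of each arc of 0.1π, narrower than the arcs above, and the depth of the cell were taken out, the coefficients lay between -0.0225 and 0.0422 and between -0.0244 and 0.0449. The points are cells that share a library, and counts are sparse, so the coefficients are a description.

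**Figure D4:**
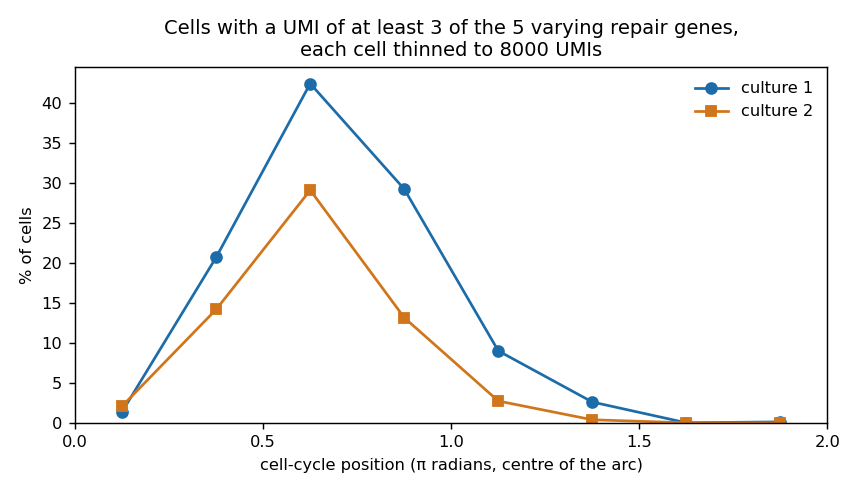
Percentage of cells with a UMI of at least 3 of Ung, Msh6, Exo1, Fen1 and Lig1, after each cell was thinned to 8000 UMIs, against the centre of the arc (x axis, cell-cycle position in π radians), for culture 1 (circles) and culture 2 (squares). Both cultures are highest in the arc from 0.5π, at 42.4% and 29.1%, and at or near 0 from 1.5π to 2π.

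Most of the other genes of the 2 pathways that varied encode proteins that also work at the replication fork. Of 21 mismatch repair genes measured, 13 varied with position, and 7 of 26 base excision repair genes did, against 4.01% of all genes. The clamp Pcna and its loader subunits Rfc1 to Rfc5 all varied, 6 of 6, with Pcna at R² 0.596 and 0.430. Of the single-strand binding genes Rpa1 and Rpa2 varied and Rpa3 did not pass, and of the polymerase delta genes Pold1 and Pold3 did and Pold2 did not pass. Beside Msh6, which passed, Msh3 had R² 0.0185 and 0.0146 and Pms2 0.0217 and 0.0207. Without the clamp, loader, single-strand binding, polymerase and ligase genes, 2 of the other 8 mismatch repair genes varied, Msh6 and Exo1.

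In base excision repair the varying genes were, beside Ung, Fen1 and Lig1, the clamp Pcna, the polymerase epsilon subunits Pole and Pole2, and Neil3, a glycosylase that acts on oxidised bases. Of the 7 glycosylase genes in the table Ung and Neil3 passed, and Neil3, at R² 0.121 and 0.0984, was highest later than Ung, at 0.935π and 0.895π by the harmonic fit against 0.540π and 0.510π. Tdg, the thymine-DNA glycosylase and the most highly detected of them, in 81.1% and 68.9% of cells, had 0.0132 and 0.0141. None of the 4 genes of short-patch gap filling and ligation passed, with Polb at 0.00329 and 0.000293 and Lig3 at 0.00232 and 0.00232, below Xrcc1. Pcna, Fen1 and Lig1, which the long-patch branch shares with the replication fork, passed, as did 2 of the 4 polymerase epsilon genes, while Pole3 had 0.0705 and 0.0391 and Pole4 0.0482 and 0.0376. Without these 7 genes, 2 of the other 19 varied, Ung and Neil3. Of the 8 genes of poly(ADP-ribose) metabolism and end processing 0 passed, and Parp1 had the highest lower R² of the 8. At the 4.01% of all genes that passed, groups as small as these would often hold none, so the counts of 0 do not set them apart.

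**Figure D5:**
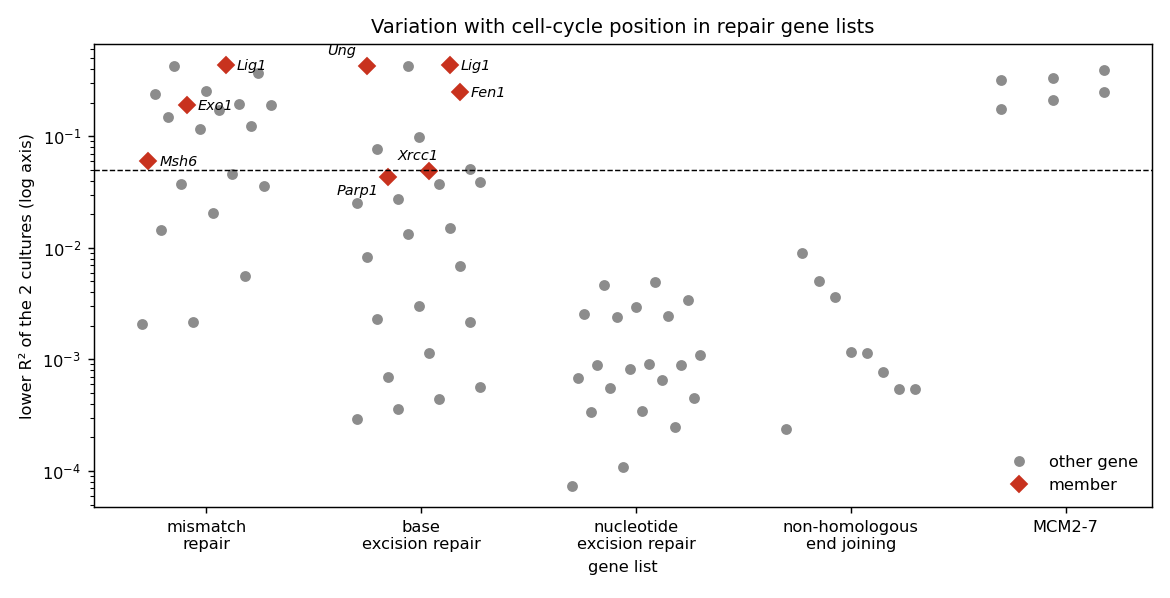
Lower R² of the 2 cultures (y axis, log scale) for each gene of 5 lists (x axis). Diamonds are the 7 members, circles are other genes, and the dashed line is the criterion of 0.05. All 6 of the Mcm genes lie above it, 13 of 21 mismatch and 7 of 26 base excision repair genes do, and none of the 21 nucleotide excision repair or 9 end joining genes does. The mismatch and base excision lists include 13 and 7 genes shared with the replication fork, which the nucleotide excision list leaves out.

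The same fit was made for 2 other repair pathways. The list of nucleotide excision repair genes leaves out the clamp, loader, polymerase and ligase genes that fill its gaps too, so its count can be set beside the 2 of 8 above but not beside the 13 of 21. Of 21 nucleotide excision repair genes, which remove bulky lesions, and 9 non-homologous end joining genes, which rejoin double-strand breaks, none met the criterion, also at an R² of 0.02, against 4.01% and 8.34% of all genes, shares at which lists of this size would hold few or none. The median lower R² was 0.000887 and 0.00115, against 0.00183 over all genes. It was 0.123 over the 21 mismatch repair genes and 0.0201 over the 26 base excision repair genes. Those 2 lists include 13 and 7 genes shared with the replication fork, so their medians cannot be set beside that of nucleotide excision repair. The nucleotide excision repair gene with the highest mean value, Gtf2h5, a subunit of the repair and transcription factor TFIIH, was found in 96.5% and 94.6% of cells and had R² 0.00205 and 7.29e-05. The next, Rad23b and Ddb1, which take part in lesion recognition, had 0.00522 and 0.00246 and 0.000821 and 0.00101. Among the end joining genes with the highest means, Xrcc5, which encodes Ku80, had 0.00116 and 0.00236 and Paxx 0.00506 and 0.00664. Xrcc6, which encodes Ku70, had the highest lower R² of both lists, 0.00904.

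The genes most like each member were sought among the 427 other genes that varied with position, by the correlation of mean profiles over 19 arcs of 0.1π that hold at least 20 cells. For Ung these were Cdc6, the loader of the replicative helicase, at 0.974 in the lower culture, Alkbh2, a DNA alkylation repair enzyme, at 0.971, and Gpr180 at 0.931. For Msh6 they were Hells, a chromatin remodeller, at 0.949, Dtl at 0.926 and Slbp, the histone mRNA binding protein, at 0.920. Exo1 was most like Fam111a at 0.984, Aunip at 0.975 and Chaf1a, a chromatin assembly subunit, at 0.971. Fen1 was most like Atad2 at 0.979, Fam111a at 0.978 and the origin recognition subunit Orc6 at 0.977. Lig1 was most like Gmnn, which encodes geminin, at 0.986, Pcna at 0.980 and Rpa1 at 0.978. Arcs of 1 profile share cells of 1 library, and the coefficients are a description.

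The level of every member was higher in culture 1. In deposited values the ratio of culture 1 to culture 2 was 1.13 to 1.36 for the members, and its median over all genes was 1.07, also above 1. UMIs were not recovered for all genes, so the UMI values below have no such background. Recovered UMIs per 10000 over all cells were 0.364 against 0.221 for Ung, 0.183 against 0.108 for Msh6, 0.173 against 0.0965 for Exo1, 0.457 against 0.184 for Fen1, 0.857 against 0.504 for Lig1, 0.617 against 0.518 for Parp1 and 0.295 against 0.231 for Xrcc1. Culture 1 also had the larger share of cells between 0.5π and π, at 12.3% and 17.3% in the 2 arcs against 7.43% and 7.74%. Within arcs the median ratio of culture 1 to culture 2 was 1.33 for Ung, 1.38 for Msh6, 1.12 for Exo1, 1.66 for Fen1, 1.13 for Lig1, 1.06 for Parp1 and 1.13 for Xrcc1, and culture 1 was higher in 8 of 8 arcs for Msh6, Fen1 and Xrcc1, in 7 for Ung, in 6 for Lig1 and in 5 for Exo1 and Parp1. The ratio of Exo1 went down to 0.478 in 1 arc. With 1 library per culture these differences have no replicate check. The deposited values gave a smaller difference for Fen1, 1.36 against 2.48 times in recovered UMIs over all cells, since the deposited values of Fen1 carry a different scale in each culture.

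The 7 genes lie on 5 chromosomes of GRCm38. In the GENCODE vM21 annotation Exo1 spans chr1:175880581-175913489 and Parp1 chr1:180568924-180601254, Ung spans chr5:114130386-114139323, Lig1 chr7:13277283-13311433 and Xrcc1 chr7:24546289-24573440, and Msh6 spans chr17:87975062-87990892, all on the plus strand, while Fen1 spans chr19:10199132-10204169 on the minus strand. Msh6, Fen1 and Lig1 overlap a gene of the table on the opposite strand, Fbxo11, Tmem258 and Zswim9, and whether the counting used strand was not given in the sources used here. The R² of these 3 genes was 0.00153 and 0.00122, 0.00237 and 0.00189, and 0.00347 and 0.00448. None of them varied with position, and neither did Pld5, the nearest gene of the table to Exo1. Alkbh2, the nearest to Ung, is divided from it by 2167 bases, reads in the opposite direction, and varied, at 0.0899 and 0.0581, with its highest fitted point at 0.560π and 0.485π.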

How the data were processed

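Per the study's methods and the submitters' processing notes, the authors quantified spliced transcripts with alevin (Salmon 1.3.0) against GRCm38 with a GENCODE annotation, giving estimated counts of UMIs whose total per cell was deposited. They removed cells with few genes and outliers in depth, genes, mitochondrial share or doublet score, and mitochondrial and rare genes. The deposited expression values are a library-size normalized linear signal, made by the authors. Each member also carries its own factor in each culture: its values, multiplied by the depth of the cell, are mostly steps of 1 size, and 76.3% to 97.8% of the nonzero values of the members lay within 0.1 of a whole number, and 93.4% to 99.95% within 0.1 of a multiple of 0.5. Such steps were not found for every gene of the lists, and UMIs are given for members only. UMIs were recovered by dividing by that step and rounded to 0.5. The authors integrated the cultures with Seurat 3.2.2 and derived the cell-cycle position from principal components of cell-cycle genes, and whether the deposited position is that of the integrated data or a projection was not given in the sources used here.

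The members and lists were chosen with earlier results of these data known, and the role groups, motif and recovery of UMIs after the values were seen. All genes were fitted within each culture (Python 3.11.15, numpy 2.4.6). Periodic loess used R 4.3.3 (span 0.3, degree 2, on 3 copies of the circle). The text names all members, the 3 genes most like each varying member, and of each list the varying genes and the 3 of highest mean, with others as examples chosen after their values were seen. The fit and the step search were tested on simulated data. Alternatives varied the threshold, pseudocount, scale, filter, depth, position, harmonics, smoother, cells and culture. Cell types were not assigned, and 0 columns of other samples were present. Replicate cultures may differ for technical reasons. Intervals cover counting error only. Some genes of the lists are not reported here by name.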

Additional observations from a re-analysis of the deposited data

How the results depend on the processing

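The 5 varying members met the criterion under every alternative but one: at an R² of 0.1 Msh6 did not. Xrcc1 joined them with a pseudocount of 0.1 and in cells of 12000 to 20000 UMIs, and Xrcc1 and Parp1 joined them at an R² of 0.02 and in culture 1 alone. Over all genes the count was 428 and moved to 890 at an R² of 0.02 and to 240 at 0.1. That of base excision repair genes was 7 and moved to 13 at 0.02 and to 4 at 0.1, and leaving out one culture at a time gave 7 to 11, the higher from culture 1 alone, where Parp1, Xrcc1, Pole3 and Tdp1 passed too. That of mismatch repair genes stayed between 12 and 17 over these settings, and that of nucleotide excision repair and end joining genes at 0. The position of the highest point of the loess line moved by more than the spread between cultures for 5 of 7 members with a span of 0.1, 6 of 7 with a span of 0.5, 4 of 7 with the rebuilt position and 3 of 7 in cells of 12000 to 20000 UMIs, and for 0 of 7 with another pseudocount, the linear value, recovered UMIs or without shared barcodes. The cause was not tested. The last 2 of these settings were chosen after seeing the data. No paired analysis was possible because both cultures belong to 1 group, so no second group shares their numbers. Depth limits the arcs from 1.25π to 1.75π, where few cells lie.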

Other observations

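Alkbh2, which encodes a dioxygenase that reverses alkylation damage in DNA, is the neighbour of Ung on chromosome 5 and, of the 427 genes compared, had the second most similar profile, at 0.971 and 0.981 in cultures 1 and 2 over 19 arcs. It was found in 15.6% and 12.4% of cells. The pair was singled out after its values were seen, and no cause was tested. Fam111a was among the 3 most similar genes of both Exo1, at 0.984 and 0.991, and Fen1, at 0.987 and 0.978.

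The deposited scale of the members differed between the cultures. At the median depth of its culture 1 UMI of Fen1 was worth 0.702 in culture 1 and 1.72 in culture 2, while 1 UMI of Parp1 was worth 0.913 and 1.27. Comparisons of deposited levels between members or between cultures carry these factors, and profiles of 1 member within 1 culture do not. Nonzero Parp1 values lay within 0.1 of a whole UMI in 81.8% and 76.3% of cases and within 0.1 of a multiple of 0.5 UMI in 96.8% and 98.2%. For Fen1 the shares were 97.5% and 93.9%, and 97.8% and 94.0%.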
